A study of Homo sapiens with 84 samples.

Results

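The response of Kyse30 cells to 6 h of EGFhigh was described here, across all genes and against untreated cells of the same time point. Kyse30 is an established esophageal squamous cell carcinoma line whose EGFR gene is amplified. Of the 84 libraries of the series, 7 made up this comparison, with 4 libraries of EGFhigh (9 nM EGF, replicates 1 to 4) and 3 of untreated control cells (replicates 1, 3 and 4). Cells of both groups had been kept without serum for 24 h beforehand and stayed serum-free throughout, so the untreated group was a serum-starved one and not a growing culture. The other Kyse30 groups used below were EGFlow (1.8 nM EGF, 6 h, 4 libraries), EGFhigh together with EpEX-Fc, the ectodomain of EpCAM fused to an immunoglobulin Fc (6 h, 4 libraries), the Fc protein alone (6 h, 3 libraries), and untreated and EGFhigh cells at 72 h (3 libraries each). All came from 1 cell line, and the study used the time of 6 h to read early transcriptional effects of EGFR activation.

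EGF binds the receptor tyrosine kinase EGFR, which signals through the RAS-ERK and PI3K-AKT cascades. ERK phosphorylates and induces transcription factors of the AP-1, EGR and ETS families within minutes to hours, and several of the induced genes encode further EGFR ligands or inhibitors of the cascade itself. AKT keeps FOXO transcription factors out of the nucleus, so that genes switched on by FOXO in starved cells lose their activator when a growth factor arrives. In stratified squamous epithelium, the same receptor drives keratinocyte proliferation and migration and the stress keratins of wound edges.

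Counts falling on genes ranged from 2769098 to 9331549 per library for EGFhigh (median 5444670) and from 5321269 to 8624072 for control, and EGFhigh replicate 1 was the shallowest of the 7. A count of 3 in these libraries corresponds to 0.321 to 1.08 CPM (counts scaled to a common library size), the level under which a gene cannot be told from an absent one. Levels below are CPM scaled by TMM factors, given in the order of replicates 1, 3 and 4 for control and 1 to 4 for EGFhigh. Spearman correlations across genes lay between 0.945 and 0.967 for the 9 pairs of libraries within a group and between 0.93 and 0.958 for the 12 pairs between groups, and no pair differed by as little as counting noise. Mitochondrial transcripts took 5.99% to 12.9% of the counts, with replicate 1 of both groups lowest (5.99% and 6.96%). The part of that difference in the results was not tested. All 12 markers of squamous epithelium had counts, summing to 3565 to 3980 CPM in control and 4788 to 5421 CPM in EGFhigh. PKP1 held only 10, 2 and 1 counts in control and 0, 2, 0 and 3 in EGFhigh, and was not tested. The sums include EGFR, with a mean of 1583 CPM in control and 2148 CPM in EGFhigh. Of 10 blood cell markers, 6 were at 0 in all 7 libraries (among them CD3D, CD3E, HBA1, HBB and MS4A1), as were 5 of 8 endothelial markers (CLDN5, KDR, PECAM1, TEK and TIE1) and 2 of 10 fibroblast markers (COL3A1 and LUM). The fibroblast list summed to 16.9 to 56.6 CPM in control and 17.8 to 50.5 CPM in EGFhigh.

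Of 15350 genes tested, 391 were differentially expressed (DEGs: padj of at most 0.05 and an absolute log2 fold change, log2FC, over 0.5). EGFhigh raised 206 genes and lowered 185, which is 1.34% and 1.21% of the genes tested. The median log2FC was 1.15 among the higher and -1.22 among the lower DEGs, and 28 higher and 26 lower genes moved by more than 2 on the log2 scale. Higher DEGs had a median level of 70.6 CPM and all but 1 encoded protein, whereas the lower DEGs had a median of 27.6 CPM and 20 of 185 (10.8%) were non-coding genes or pseudogenes. Non-coding genes and pseudogenes made up 19.2% of the genes tested. The plot of level against change shows both wings. The EGFhigh and control libraries did not overlap in 204 of the higher and 181 of the lower DEGs. A lack of overlap in a named DEG thus adds little to its call. Of 77 named DEGs, 15 passed in all 15 alternative fits (ACTN1, AREG, BCL6, CDC25C, DBP, ETS1, HBP1, KLHL24, KRT6A, PIK3IP1, RRP9, SOCS2, SPHK1, SPOCD1 and TXNIP), and none changed direction in any. The count of DEGs rested on all replicates, and fell to 165, 179 and 113 without control replicates 1, 3 and 4, and to 179 and 202 without EGFhigh replicates 2 and 3. In bulk samples, more RNA per cell and a larger share of cells with that RNA cannot be told apart.

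**Figure D1:**
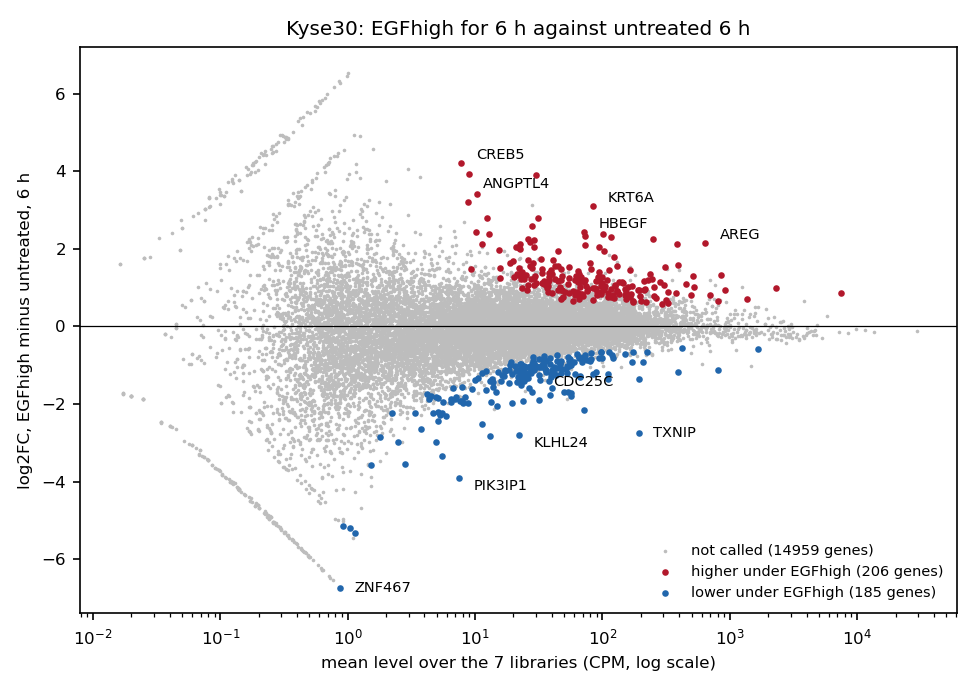
Each point is 1 of the 15350 genes tested, with its mean level over the 7 libraries in CPM (log scale) on the x axis and the log2FC of EGFhigh against untreated Kyse30 cells at 6 h on the y axis. The 206 higher DEGs (red) reach 4.22 for CREB5, and the 185 lower DEGs (blue) reach -6.73 for ZNF467, a gene with no count in EGFhigh; grey points were not called.

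Ligands of the EGFR family were among the genes that rose. HBEGF, the heparin-binding ligand that is shed from the membrane (ENSG00000113070, chr5:140332843-140346631, minus strand), stood at 23.8, 16.3 and 20.8 CPM in control and at 139, 90.1, 98.9 and 108.9 CPM in EGFhigh, a log2FC of 2.43 ± 0.65 (SE, padj = 0.0315). AREG, the ligand amphiregulin, was at 147.9, 169.1 and 325.6 CPM and at 995.9, 861.3, 779.4 and 1193 CPM (log2FC 2.16 ± 0.45, padj = 0.00463). EREG, epiregulin, was at 48.3, 44.6 and 61.0 CPM and at 140.7, 130.5, 105.9 and 120.3 CPM (log2FC 1.28 ± 0.34, padj = 0.0324). For these 3 ligands, every EGFhigh library lay above every control library, as for 7.22% of all genes tested and 204 of the 206 higher DEGs. TGFA did not pass (log2FC 1.21 ± 0.39, padj = 0.084), although its 4 EGFhigh libraries (66.1 to 92.8 CPM) stayed above the 3 control libraries (27.9 to 39.3 CPM), and it passed with DESeq2 (padj = 0.0307). BTC, EPGN, NRG1 and NRG4 did not pass, with log2FCs of 0.88, 0.52, 0.62 and -2.20. In all, 3 of the 8 ligands tested rose and none fell (1.34% and 1.21% of all genes did), with a median log2FC of 1.04 against -0.05 over all genes tested. AREG passed in each of the 7 refits that left out 1 library, whereas HBEGF and EREG each lost their call in several of them, with padj of up to 0.132 for HBEGF (without control replicate 4) and 0.128 for EREG (without control replicate 1).

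Among the receptors, only ERBB3 changed. ERBB3, the kinase-impaired partner that binds neuregulins, was at 77.2, 44.1 and 62.3 CPM in control and at 38.8, 21.1, 27.1 and 20.1 CPM in EGFhigh (log2FC -1.21 ± 0.29, padj = 0.0137). The ranges did not overlap, but the call was lost without control replicates 1 or 4 or EGFhigh replicates 2 or 4 (padj of up to 0.11). EGFR itself was at 1717, 1555 and 1478 CPM and at 2251, 2041, 2313 and 1988 CPM, higher in all 4 EGFhigh libraries but short of the threshold (log2FC 0.44 ± 0.17, padj = 0.179). ERBB2 (log2FC -0.66 ± 0.32, padj = 0.307) overlapped between groups. EPCAM, whose ectodomain the study used as a second ligand, was at 194.7 to 284.8 CPM in control and 177.9 to 296.1 CPM in EGFhigh (log2FC 0.04 ± 0.22, padj = 0.966), and its sign turned in 4 of 15 alternative fits. None of the 9 genes for EpCAM and its proteases passed in edgeR's test or with DESeq2, and 3 were higher at an unadjusted p under 0.05.

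Inhibitors of the ERK cascade and the classical early transcription factors were not broadly raised at 6 h. None of 23 feedback regulators (DUSP phosphatases, SPRY and SPRED proteins and others) passed, with a median log2FC of 0.34, and 5 higher and 1 lower at an unadjusted p under 0.05 (1 DEG with DESeq2). The extremes were SPRY1 (-1.24 ± 0.43, padj = 0.112) and DUSP2 (2.22 ± 1.19, padj = 0.379). Among 27 AP-1, EGR and ETS factors 1 rose and 3 fell, where 1.34% of all genes rose and 1.21% fell. The factor that rose was ETS1, a transcription factor that ERK phosphorylates (chr11:128458761-128587558, minus strand), at 9.91, 4.92 and 7.16 CPM in control and 59.8, 37.1, 39.8 and 38.8 CPM in EGFhigh (log2FC 2.58 ± 0.47, padj = 0.00182). The median of the list was 0.20, with 15 of 27 above 0, and 7 were higher and 6 lower at an unadjusted p under 0.05. The 3 that fell were early response genes. ATF3 was at 112.3, 82.4 and 90.8 CPM in control and at 52.0, 16.3, 22.0 and 21.9 CPM in EGFhigh (log2FC -1.79 ± 0.41, padj = 0.0109). FOSB was at 55.4 to 79.6 CPM and 10.4 to 35.7 CPM (log2FC -1.78 ± 0.40, padj = 0.00978). EGR1 was at 483.3 to 652.3 CPM and 152.5 to 302.6 CPM (log2FC -1.19 ± 0.32, padj = 0.0301). None of the 3 overlapped between groups. No member of the list was a lower DEG without control replicate 1 or without EGFhigh replicate 2, where ATF3 reached a padj of 0.0627 and FOSB of 0.0616. Against the Fc libraries in place of untreated cells, EGR1 had a log2FC of -0.89 (padj = 0.105).

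**Figure D2:**
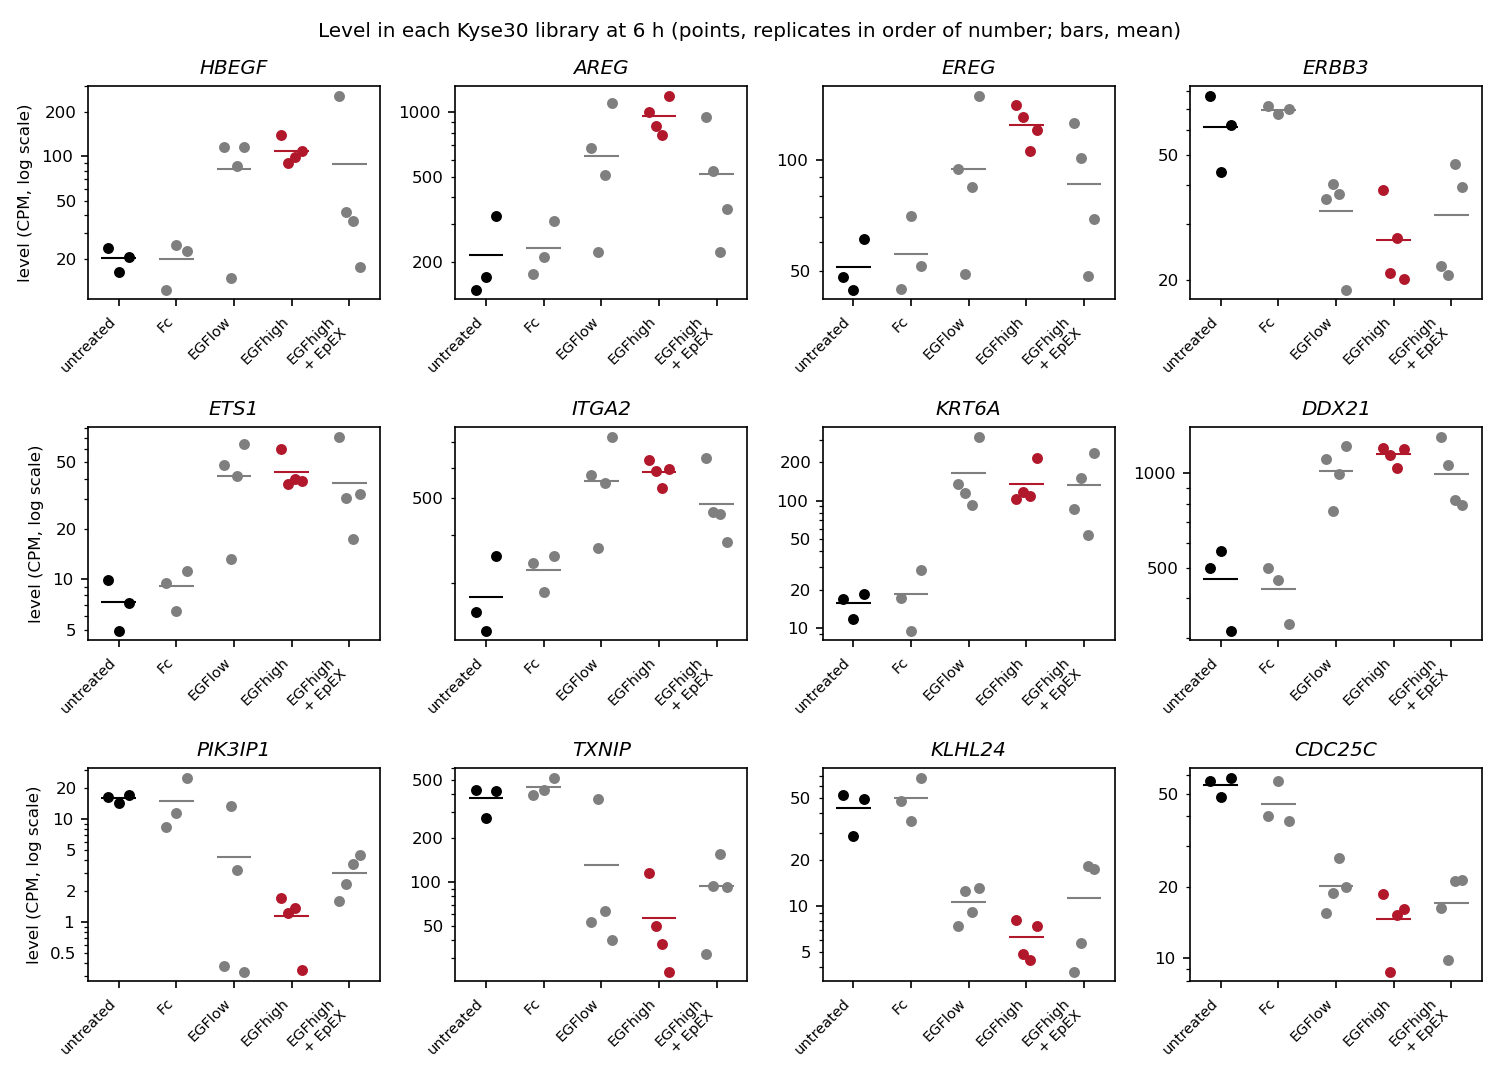
Level of 12 genes in each Kyse30 library at 6 h, in CPM on a log scale, with 1 point per library in order of replicate number and a bar at the group mean. EGFhigh (red) lies apart from untreated cells (black) in every panel, while 1 EGFlow library (replicate 2) lies at or near the untreated level for HBEGF, AREG, EREG, ETS1, PIK3IP1 and TXNIP.

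The 12 highest log2FCs among DEGs at 5 CPM or more without overlap between groups belonged to genes of several roles. CREB5, a bZIP transcription factor (chr7:28299321-28825894, plus strand), was at 0.695, 0 and 1.40 CPM in control and at 21.4, 2.46, 5.85 and 22.6 CPM in EGFhigh (log2FC 4.22 ± 1.15, padj = 0.0357). Its 4 EGFhigh values spread widely. The call of CREB5 was lost in 5 of the 7 refits without 1 library (padj of up to 0.156, without control replicate 3). ANGPTL4, a secreted inhibitor of lipoprotein lipase, was at 0.869, 1.56 and 0.421 CPM and at 11.9, 12.3, 20.3 and 15.2 CPM (log2FC 3.93 ± 0.89, padj = 0.00968). KRTAP2-3, a hair keratin-associated protein, was at 7.65, 1.32 and 1.26 CPM and at 96.5, 51.8, 34.3 and 17.2 CPM (log2FC 3.91 ± 0.83, padj = 0.00625). CREB5 and KRTAP2-3 did not pass against the Fc libraries (log2FC 3.06, padj = 0.0952 and log2FC 1.96, padj = 0.133), where Fc replicate 1 held 26.4 CPM of KRTAP2-3. SPOCD1, known from silencing of transposons in germ cells, was at 3.48, 0.959 and 0.421 CPM and at 15.98 to 17.75 CPM (log2FC 3.41 ± 0.65, padj = 0.00244). It was steady among the EGFhigh libraries and passed in all 15 alternative fits. SPRR2A, a precursor of the cornified envelope, reached 3.22 ± 0.79 (padj = 0.0165) and KRT6A, a stress keratin of wounded epidermis, 3.11 ± 0.66 (padj = 0.00625); both belong to families of near-identical copies, so how their reads were shared out is uncertain. The others were SOCS2 (2.79 ± 0.51), a suppressor of cytokine signaling, SPHK1 (2.79 ± 0.52), which makes sphingosine-1-phosphate, ETS1, GLIPR1 (2.43 ± 0.53), HBEGF, and the gap junction gene GJB2 (2.39 ± 0.62).

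Promoters are shown for the highest of these genes that have an entry in the RefSeq promoter table (GRCh38.p14). Each line holds the 250 bases before the start site that the RefSeq table gives, 5′ to 3′ on the strand of the gene. That site lies 113197, 6620 and 866 bases inside the outermost start of the GENCODE gene for CREB5, SPHK1 and ANGPTL4, and 29, 25 and 0 bases inside it for SPOCD1, SPRR2A and KRTAP2-3. Which start the cells used was not measured, since reads come from the 3′ end. Capitals mark TATAAA, the core of the TATA box, within the last 50 bases, and the AP-1 motif TGACTCA on either strand.
CREB5 (chr7:28412268-28412517, plus strand): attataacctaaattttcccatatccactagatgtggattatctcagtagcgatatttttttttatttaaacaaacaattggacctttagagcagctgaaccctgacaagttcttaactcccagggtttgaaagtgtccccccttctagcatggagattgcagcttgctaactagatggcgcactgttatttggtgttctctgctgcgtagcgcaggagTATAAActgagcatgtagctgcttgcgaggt
ANGPTL4 (chr19:8363905-8364154, plus strand): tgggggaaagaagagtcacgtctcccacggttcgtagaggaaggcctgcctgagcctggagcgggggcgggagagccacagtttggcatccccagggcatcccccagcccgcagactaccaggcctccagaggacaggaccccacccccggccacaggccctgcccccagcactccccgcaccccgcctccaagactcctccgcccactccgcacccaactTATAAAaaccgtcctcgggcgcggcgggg
KRTAP2-3 (chr17:41060115-41060364, minus strand): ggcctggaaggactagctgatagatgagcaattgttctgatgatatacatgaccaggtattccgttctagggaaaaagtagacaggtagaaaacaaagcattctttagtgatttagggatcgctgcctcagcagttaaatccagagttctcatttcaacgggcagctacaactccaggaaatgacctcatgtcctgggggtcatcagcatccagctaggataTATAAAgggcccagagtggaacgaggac
SPOCD1 (chr1:31816023-31816272, minus strand): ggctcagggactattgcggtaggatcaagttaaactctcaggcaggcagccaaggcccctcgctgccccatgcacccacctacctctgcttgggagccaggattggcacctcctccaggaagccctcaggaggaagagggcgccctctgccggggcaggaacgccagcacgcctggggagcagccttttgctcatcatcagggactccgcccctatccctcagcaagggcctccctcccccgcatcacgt
SPRR2A (chr1:153057513-153057762, minus strand): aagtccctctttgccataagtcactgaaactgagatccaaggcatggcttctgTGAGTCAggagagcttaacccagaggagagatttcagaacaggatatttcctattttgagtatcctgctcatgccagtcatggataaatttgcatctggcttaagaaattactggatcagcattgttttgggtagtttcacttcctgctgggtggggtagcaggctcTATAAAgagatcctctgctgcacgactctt
SPHK1 (chr17:76382954-76383203, plus strand): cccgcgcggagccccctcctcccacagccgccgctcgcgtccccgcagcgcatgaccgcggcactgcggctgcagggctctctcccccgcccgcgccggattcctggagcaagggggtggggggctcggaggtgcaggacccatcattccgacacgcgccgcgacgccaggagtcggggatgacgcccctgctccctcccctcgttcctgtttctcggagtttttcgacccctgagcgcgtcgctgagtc
TATAAA stood 31, 29, 28 and 30 bases before the RefSeq start site of CREB5, ANGPTL4, KRTAP2-3 and SPRR2A, that is in 4 of the 6 promoters, and was absent from these windows of SPOCD1 and SPHK1. It was looked for after these sequences had been read. Within the last 50 bases it was found in 7 of 162 higher DEGs with an entry (4.32%), in 4 of 147 lower DEGs (2.72%) and in 207 of all 10842 tested genes with an entry (1.91%). Those 7 include the 4 promoters printed above in which it was first seen, so the share of 4.32% is not an independent count. The AP-1 motif stood in 1 of the 6 promoters, 197 bases before the RefSeq start site of SPRR2A as TGAGTCA. Over 250 bases and both strands, TGACTCA was found in 4.94% of higher DEGs, 2.72% of lower DEGs and 2.72% of all. The E-box CACGTG, whose palindrome reads alike on both strands, was found in 12.3%, 6.8% and 8.75%, and the cAMP response element TGACGTCA in 2.47%, 4.76% and 2.9%. The ETS motif CCGGAAGT was found in 6.79%, 3.4% and 7.13%, and the EGR motif GCGTGGGCG in 1.24%, 0.68% and 1.19%. These shares describe letters in a window and are not binding sites.

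Genes of cell-matrix contact were the adhesion group with the most DEGs. ITGA2, an integrin chain that binds collagen, was at 251.1, 224.6 and 352.1 CPM in control and at 628.8, 586.6, 530.1 and 596.4 CPM in EGFhigh (log2FC 1.09 ± 0.23, padj = 0.0057), and of the 7 refits without 1 library it lost its call in the one without control replicate 3 alone. Of 17 genes for hemidesmosomes and integrins, 4 rose (1.34% of all genes did) and none fell, among them ITGA2, its partner ITGB1 (0.81 ± 0.19) and ITGA6 (0.65 ± 0.16), which pairs with ITGB4 in hemidesmosomes. The median of the list was 0.51. ITGA6 did not pass against the Fc libraries (log2FC 0.43, padj = 0.135), and the count of 4 fell to 2 without control replicate 3 and to 1 without control replicate 4. PLAT, the tissue-type plasminogen activator, was the 1 DEG of 16 genes for plasminogen activation and metalloproteinases, at 16.4 to 19.8 CPM in control and 23.9 to 99.9 CPM in EGFhigh (log2FC 1.70 ± 0.49, padj = 0.0466). PLAT lost its call in 6 of the 7 refits without 1 library (padj of up to 0.182, without control replicate 4). The tissue factor gene F3, which starts coagulation, was the 1 DEG of 16 YAP/TAZ and TEAD targets, at 66.0 to 102.4 CPM and 203.3 to 644.8 CPM (log2FC 2.25 ± 0.54, padj = 0.0144). F3 lost its call without EGFhigh replicate 1 or control replicates 3 or 4 (padj of up to 0.1).

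Transcription factors and cadherins of epithelial-to-mesenchymal transition (EMT) had 2 DEGs, both keepers of the epithelial state. GRHL2, a factor that holds epithelial junction genes on, was at 69.7, 51.9 and 65.8 CPM in control and at 27.2, 31.1, 32.6 and 28.8 CPM in EGFhigh (log2FC -1.06 ± 0.25, padj = 0.0116). ESRP1, which directs epithelial splicing, was at 216.7, 239.8 and 245.8 CPM and at 148.2, 92.9, 107.5 and 146.5 CPM (log2FC -0.92 ± 0.21, padj = 0.00899). Both fell without overlap (1.21% of all genes were lower DEGs), and neither passed without control replicate 4. GRHL2 also lost its call without control replicate 1 (padj = 0.0686), and ESRP1 without EGFhigh replicate 2 (padj = 0.0627). None of the other 11 passed in edgeR's test, and SNAI2 had the highest value (log2FC 0.70 ± 0.49, padj = 0.548). DESeq2 called 1 member of this list higher. Of the EMT hallmark list of MSigDB, 8 of 152 members tested rose and none fell (median 0.24), where 1.34% of all genes rose. They included GLIPR1, TNFAIP3, AREG, the heparan sulfate carrier SDC4 (1.15 ± 0.26) and ITGA2. Of the partial EMT list, 7 of 90 rose and none fell (median 0.19), with F3, ACTN1 (1.02 ± 0.19), TPM4 (0.95 ± 0.20), P3H2 (0.89 ± 0.22) and ITGB1 among them. ACTN1 and TPM4 bind actin, and P3H2 hydroxylates collagen. The 2 counts dropped to 3 and 1 without control replicate 4.

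Squamous differentiation genes showed few calls at 6 h, where 1.34% of all genes rose and 1.21% fell. SPRR2A was the 1 DEG of 21 cornified envelope genes (median 0.35), and KRT6A and KRT8 (0.99 ± 0.27, padj = 0.0352) were the 2 of 23 genes for desmosomes, tight junctions and keratins (median 0.11). KRT8 encodes a keratin of simple epithelia, and was at 1008 to 1706 CPM in control and 2366 to 3550 CPM in EGFhigh. Squamous lineage factors were split. PITX1 (1.35 ± 0.39, padj = 0.0476) and the Notch ligand JAG1 (1.15 ± 0.30, padj = 0.0277) rose, while SOX2, at 60.1, 125.7 and 202.0 CPM in control and 12.6, 34.8, 19.3 and 46.5 CPM in EGFhigh, fell (log2FC -2.17 ± 0.60, padj = 0.0384) along with GRHL2. SOX2 lost its call in 5 of the 7 refits without 1 library, with a padj of up to 0.25 without control replicate 4. PITX1 lost its call in 6 of them (padj of up to 0.186, without control replicate 3), and JAG1 in 5 (padj of up to 0.128, without control replicate 1) and against the Fc libraries (padj = 0.058). Of the 16 members, 12 did not pass.

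Genes that build ribosomes formed the list with the most higher DEGs. Of 72 genes for ribosome biogenesis, all tested, 16 were higher DEGs (1.34% of all genes were) and none were lower, 70 had a log2FC above 0, and the median was 0.59. For 35 of the 72 (48.6%), every EGFhigh library lay above every control library, against 7.22% of all genes. RRP9, which encodes a U3 snoRNP protein, was at 21.6, 17.8 and 21.5 CPM in control and at 35.01, 50.8, 70.6 and 52.7 CPM in EGFhigh (log2FC 1.37 ± 0.26, padj = 0.00188). DDX21, a nucleolar RNA helicase, was at 498.9, 563.4 and 315.4 CPM and at 1206, 1146, 1039 and 1195 CPM (log2FC 1.32 ± 0.27, padj = 0.00388). NOL6, RRP1, RRP12 and NOP16, all ribosome assembly factors, had log2FCs of 1.41, 1.27, 1.21 and 1.18. The group's count was 6 without control replicate 1, 2 without control replicate 4 and 6 without EGFhigh replicate 2, and 27 with the Fc libraries as control. Among genes for nucleotide and polyamine synthesis, CTPS1, which makes CTP (1.27 ± 0.35, padj = 0.0392), and SRM, spermidine synthase (0.83 ± 0.24, padj = 0.0489), were the 2 DEGs of 24 (median 0.36). These 2 were lost in most refits that left out 1 library, with a count of 0 to 1 in all 7. None of 19 genes for amino acid transport and ATF4 targets passed at a median of 0.77, while 8 were higher at an unadjusted p under 0.05. The count of higher DEGs in that list was 2 with DESeq2, 10 without the low-count filter, 3 with the replicate number as a block, 5 when only the 2 groups were fitted or when the Fc libraries were added to the control, and 0 in the 7 refits without 1 library. CHAC1 had the highest value (3.12 ± 0.93, padj = 0.0584).

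Genes that FOXO factors and quiescence switch on formed the list with the lowest median (-0.90). Of 30 tested, 9 fell (1.21% of all genes did) and none rose, and in 15 (50%) every EGFhigh library lay below every control library, against 8.07% of all genes. PIK3IP1, a membrane inhibitor of PI3K (chr22:31281593-31292534, minus strand), was at 16.5, 14.4 and 17.1 CPM in control and at 1.70, 1.23, 1.37 and 0.344 CPM in EGFhigh (log2FC -3.90 ± 0.73, padj = 0.00188). TXNIP, which restricts glucose uptake, was at 424.9, 275.9 and 418.4 CPM and at 114.5, 50.2, 37.8 and 24.3 CPM (log2FC -2.74 ± 0.55, padj = 0.0034). BCL6, a transcriptional repressor, was at 21.2, 26.1 and 29.7 CPM and at 5.44, 2.63, 2.73 and 4.02 CPM (log2FC -2.83 ± 0.49, padj = 0.00117). None overlapped, and all 3 passed in each of the 15 alternative fits, as did HBP1 (-1.91 ± 0.37), a repressor of cell cycle genes. The cyclin CCNG2 (-1.97 ± 0.52) and YPEL3 (-1.69 ± 0.37) were the next by size. The highest member was CDKN1A, the CDK inhibitor p21 (0.40 ± 0.44, padj = 0.743). The count of 9 fell to 4 without control replicate 4 and to 6 without control replicate 1, control replicate 3 or EGFhigh replicate 2.

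The gene with the smallest padj of all was lower as well. KLHL24, an adaptor of a ubiquitin ligase that targets keratin 14 (chr3:183635568-183684477, plus strand), was at 52.8, 28.4 and 49.5 CPM in control and at 8.16, 4.92, 4.49 and 7.46 CPM in EGFhigh (log2FC -2.81 ± 0.36, padj = 1.15e-05). It passed in every alternative fit. The 12 lowest log2FCs were likewise taken among DEGs at 5 CPM or more without overlap between groups. Besides PIK3IP1, BCL6, TXNIP, KLHL24 and SOX2, they included FGD3 (-3.35 ± 0.80), an exchange factor for Cdc42, PALMD (-2.43 ± 0.67), the zinc finger factor PLAG1 (-2.32 ± 0.59), the circadian factor DBP (-2.28 ± 0.47), the antisense RNA DLX6-AS1 (-2.22 ± 0.51) and FOXO6 (-2.21 ± 0.63). DLX6-AS1 overlaps another gene, and reads of the 2 strands can be told apart only if counting used strand, which is not given in the sources used here. PALMD and FOXO6 did not pass against the Fc libraries (padj = 0.0536 and 0.0951).

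Genes of the G2 and M phases were lower, while those of S phase were not called. Of 34 G2/M genes tested, 10 fell (1.21% of all genes did) and none rose, 33 had a log2FC below 0, the median was -0.73, and 19 (55.9%, against 8.07% of all genes) had every EGFhigh library below every control library. CDC25C, the phosphatase that opens mitosis, was at 56.7, 48.6 and 58.4 CPM in control and at 18.7, 8.78, 15.2 and 16.2 CPM in EGFhigh (log2FC -1.90 ± 0.32, padj = 0.000867). The centrosomal kinase NEK2 (-1.59 ± 0.37), the mitotic kinesin KIF20A (-1.50 ± 0.37), the checkpoint kinase BUB1 (-1.42 ± 0.34), the kinetochore gene CENPF (-1.36 ± 0.30) and HMMR (-1.29 ± 0.35) followed. Of these 6, CDC25C alone passed in all 15 alternative fits, and the count of 10 fell to between 3 and 4 without any 1 of control replicates 1, 3 or 4 or EGFhigh replicates 1, 2 or 3. None of 34 S phase genes passed in edgeR's test or with DESeq2 (median -0.09, 1 higher and 0 lower at an unadjusted p under 0.05), nor, in edgeR's test, did any of 11 D cyclins and CDK inhibitors, where CCND1, cyclin D1, had a log2FC of 0.66 ± 0.21 (padj = 0.0733). Of those 11, 2 were higher and 2 lower at an unadjusted p under 0.05, and 1 each passed with DESeq2.

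Other lists held few DEGs, where 1.34% of all genes rose and 1.21% fell. The cell death gene PMAIP1 (1.34 ± 0.36) and the nuclease gene AEN (1.34 ± 0.35) rose, and XPC (-1.25 ± 0.31) and DDB2 (-1.22 ± 0.27), both of nucleotide excision repair, fell. XBP1 (1.15 ± 0.33) and HSPA5 (0.70 ± 0.18), genes of the unfolded protein response, were the 2 DEGs of 20 chaperone genes. TNFAIP3, a brake on NF-kB (2.18 ± 0.60, padj = 0.0366), was the 1 DEG of 13 cytokines and NF-kB genes, all 13 of which had a log2FC above 0. SMAD7, the inhibitor of TGF-beta receptors, was the 1 DEG of 16 TGF-beta and BMP genes, at 6.60, 0.839 and 2.25 CPM in control and 0 to 0.351 CPM in EGFhigh (log2FC -3.57 ± 1.03, padj = 0.0498). SMAD7 lost its call in each of the 7 refits that left out 1 library (padj of up to 0.308) and against the Fc libraries (padj = 0.322). KLF7 (1.70 ± 0.41) was the 1 DEG of 17 KLF, TSC22 and HES genes. Of the 15 alternative fits, XBP1 lost its call in 7, TNFAIP3 and XPC in 6, and AEN, PMAIP1 and HSPA5 in 5. KLF7 lost it in 3 and DDB2 in 1. TNFAIP3 had a padj of up to 0.189 and XBP1 of up to 0.248, both without control replicate 4. No DEG was found among 25 glycolysis and hypoxia genes (median 0.28), 25 cholesterol genes (median 0.09) or 28 interferon-stimulated genes (median 0.36), where 4, 2 and 5 were higher and 1, 0 and 2 lower at an unadjusted p under 0.05. DESeq2 called 1 glycolysis gene higher and 1 interferon-stimulated gene lower, and no cholesterol gene. Among 379 zinc finger genes of the ZNF series 1 rose (ZNF598, 0.78 ± 0.22), and 5 fell, namely ZNF467, ZNF703 (-1.63 ± 0.39), ZNF33B (-1.24 ± 0.29), ZNF362 (-0.98 ± 0.21) and ZNF503 (-0.97 ± 0.26). The count of 5 was near the share over all genes (1.21%). Every EGFhigh library lay below every control library in 8.71% of the 379, against 8.07% of all genes. ZNF598, ZNF703, ZNF33B, ZNF362 and ZNF503 lost their calls in 6, 2, 3, 1 and 5 of the 15 alternative fits. ZNF467 had 42 counts in the 3 control libraries and none in the 4 EGFhigh libraries, which is at least 15.1-fold lower when set against 3 counts over the group. It had no call in any of the 7 refits without 1 library (padj of 0.0568 to 0.12) or against the Fc libraries (padj = 0.237).

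**Figure D3:**
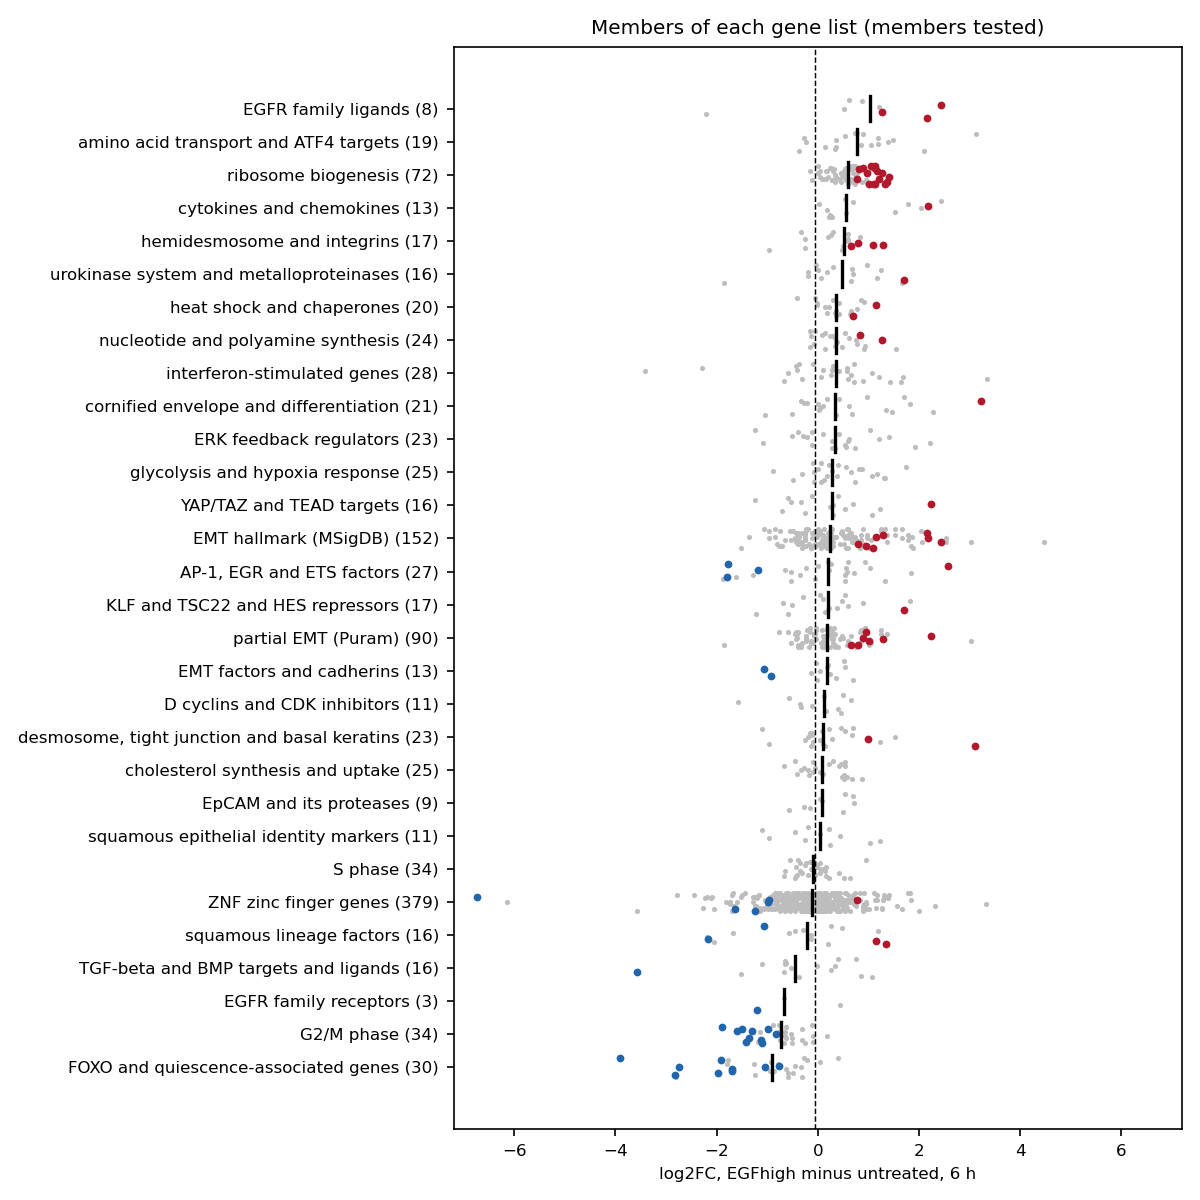
Log2FC of EGFhigh against untreated cells at 6 h (x axis) for each tested member of 30 gene lists (y axis, number tested in parentheses), with higher DEGs in red, lower DEGs in blue and the rest in grey. Black bars are list medians, from -0.90 for FOXO and quiescence-associated genes to 1.04 for EGFR family ligands, and the dashed line is the median of all genes (-0.05).

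The response to the lower dose was compared at the same time point. No gene differed between EGFhigh and EGFlow in edgeR's test (0% of genes tested) or with DESeq2 (0 DEGs). In edgeR's test 435 genes had an unadjusted p under 0.05, fewer than the 767.5 expected if no gene differed. HBEGF was 0.40 higher on the log2 scale in EGFhigh (95% interval -0.71 to 1.52) and AREG 0.61 higher (-0.17 to 1.40), and neither interval excluded 0. For PIK3IP1 (-2.05, interval -3.51 to -0.59), BCL6 (-1.69, -2.65 to -0.73) and TXNIP (-1.24, -2.27 to -0.21) the interval of this single gene lay below 0, with an adjusted p of 1 for each in edgeR's test over all genes. These genes had been chosen in part by the same EGFhigh libraries, which favors a larger difference from EGFlow. The comparisons with untreated cells share those 3 control libraries. Set side by side, ETS1 had log2FCs of 2.58 for EGFhigh and 2.51 for EGFlow, BCL6 -2.83 and -1.14, TXNIP -2.74 and -1.50, and PIK3IP1 -3.90 and -1.85. One EGFlow library stood apart from the others. In EGFlow replicate 2, the 206 higher DEGs lay at a median of 0.72 above the control mean on the log2 scale, and 31 of them within or below the range of the control libraries, against medians of 1.08 to 1.12 and 1 to 3 genes in the other EGFlow libraries. PIK3IP1 was at 13.3 CPM there and at 0.332 to 3.18 CPM in the other 3, and TXNIP at 368.8 CPM against 40.0 to 63.7 CPM. Without that library, EGFhigh and EGFlow still differed at 0 genes.

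Libraries that took no part in the first comparison were those of EGFhigh with EpEX-Fc at 6 h and of its Fc control. Against Fc, 462 genes were higher (3.01%) and 232 lower (1.51%). Of the 206 genes that rose under EGFhigh alone, 113 were also higher DEGs there (54.9% of the first list, 24.5% of the second), and 204 had the same sign. Of the 185 that fell, 52 were lower DEGs (28.1% and 22.4%), and 179 had the same sign. No gene was called in opposite directions. RRP9 (log2FC 1.47 ± 0.26), RRP12 (1.74 ± 0.29) and SRM (1.79 ± 0.25) of ribosome and polyamine synthesis, KLHL24 (-2.14 ± 0.34), TXNIP (-2.25 ± 0.53), GRHL2 (-1.03 ± 0.24) and CDC25C (-1.37 ± 0.31) passed in both. Of the lists, ribosome biogenesis had 26 of 72 higher, G2/M 10 of 34 lower, and FOXO and quiescence genes 8 of 30 lower. BCL6 did not pass (-0.90 ± 0.44, padj = 0.254), with 2.54 and 4.71 CPM in replicates 1 and 2 but 24.4 and 21.0 CPM in replicates 3 and 4, nor did SOX2 (-0.41 ± 0.58, padj = 0.755). AREG (1.15 ± 0.43, padj = 0.113) and F3 (1.40 ± 0.52, padj = 0.114) also fell short. In replicate 3 of EGFhigh with EpEX-Fc, 51 of the 206 higher and 53 of the 185 lower DEGs lay within or beyond the untreated range, more than in any other library of that group. Fc alone and untreated cells differed at 0 genes in edgeR's test (0%) and with DESeq2. An unadjusted p under 0.05 in edgeR's test was reached by 435 genes, where 767.5 would be expected if no gene differed. The count of this comparison was 222 without Fc replicate 1 and 272 without Fc replicate 4.

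The order of the counts of DEGs at 6 h and 72 h depended on the fit, with 391 and 951 in the fit of all Kyse30 libraries and 574 and 502 when each comparison was fitted on its own libraries. Against untreated cells of 72 h, 466 genes were higher (3.04%) and 485 lower (3.16%). Of the 206 genes higher at 6 h, 43 were higher DEGs at 72 h (20.9% and 9.23%), 5 were lower DEGs, and 161 had a log2FC above 0. Of the 185 lower at 6 h, 33 were lower DEGs at 72 h (17.8% and 6.8%), none were higher DEGs, and 136 had a log2FC below 0. SPOCD1 (4.34 ± 0.74), SPRR2A (5.67 ± 0.88), KRT6A (4.66 ± 0.73), AREG (1.93 ± 0.46) and ETS1 (1.70 ± 0.48) were called at both times. G2/M genes had 25 of 34 lower DEGs at 72 h and S phase genes 13 of 34, whereas ribosome biogenesis had 0 of 72 higher and 1 lower with a median of 0.02, and FOXO and quiescence genes 2 of 30 lower with a median of 0.08.

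A test of the difference between the 2 responses called 155 genes (1.01%), among them 20 of the 206 and 15 of the 185. PIK3IP1 (6 h minus 72 h: -4.59 ± 0.97, padj = 0.00745), TXNIP (-3.19 ± 0.78, padj = 0.029), BCL6 (-2.87 ± 0.68, padj = 0.0194), KLHL24 (-2.84 ± 0.50, padj = 0.00138) and YPEL3 (-2.31 ± 0.54, padj = 0.0181) were lower at 6 h, with log2FCs of 0.03 to 0.69 and no call at 72 h. ERBB3 and ESRP1 differed the same way, by -1.64 ± 0.42 and -1.34 ± 0.30. KRTAP2-3 (5.23 ± 1.14), JAG1 (1.71 ± 0.43) and NOP16 (1.76 ± 0.39) were higher at 6 h than at 72 h. The 5 genes called in opposite directions were listed after their values were seen. They were the ephrin EFNB2 (1.21 at 6 h and -1.80 at 72 h), the protocadherin PCDH7 (1.57 and -1.88), the pseudouridine synthase PUS1 (1.10 and -1.16), the splicing factor SRSF7 (1.03 and -0.93) and P3H2 (0.89 and -0.84). The difference was called for all 5, but opposite calls in the same libraries make that nearly certain in advance. Any gene chosen as a DEG of the 6 h libraries is likewise favored to show a larger difference from 72 h. For 2 family members the time difference was called without a call at 6 h: EGFR was 0.44 at 6 h and -1.03 at 72 h (difference 1.47 ± 0.25, padj = 0.00106), and NRG1, a neuregulin, 0.62 and -3.31 (difference 3.93 ± 0.84, padj = 0.00873). Mean EGFR was 2148 CPM at 6 h and 2003 CPM at 72 h in EGFhigh, but 1583 and 4100 CPM in untreated cells. Mean NRG1 was 13.84 and 1.296 CPM in EGFhigh, and 9.061 and 13.33 CPM in untreated cells. Without control replicates 2 or 3 of 72 h the count of DEGs at 72 h was 475 or 589. The count of 155 was 86 without control replicate 4 of 6 h, 92 without EGFhigh replicate 2 of 6 h, 96 without control replicate 2 of 72 h and 262 without EGFhigh replicate 1 of 72 h.

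**Figure D4:**
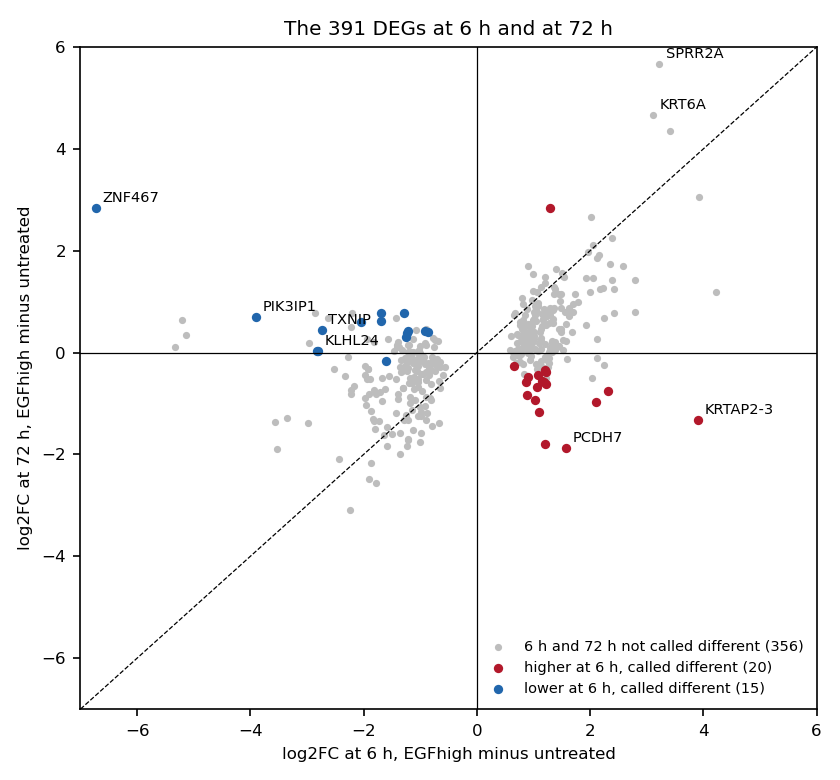
Log2FC of EGFhigh against untreated Kyse30 cells at 6 h (x axis) and at 72 h (y axis) for the 391 DEGs of 6 h, with the dashed line marking equal change. Colored points are the 20 higher (red) and 15 lower (blue) genes whose 2 responses were called different; PIK3IP1, TXNIP and KLHL24 lie far to the left and near or above 0 on the y axis.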

How the data were processed

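RNA of Kyse30 cells was sequenced from the 3′ end (QuantSeq). The authors aligned reads with STAR and counted them per gene with HTSeq on GRCh38 (hg38), as named in the submitters' processing notes, and deposited raw counts for 58395 genes per library. Versions, annotation, strand setting and any removal of PCR copies are not given in the sources used here, so counting errors and the count floor cover counting error only. Lines that name no gene were left out (29.2% to 38.8% of reads not unique in the 7 libraries). Groups and replicate numbers came from the labels, which do not say that replicates were separate cultures. The p-values therefore measure the spread between libraries within conditions, over all 43 Kyse30 libraries and not the 7 compared alone. The gene lists (34, of which 31 were assembled by hand and the EMT hallmark and partial EMT lists are those the study used) and the comparison were chosen with earlier results of these data known.

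Genes were kept by filterByExpr of edgeR 4.0.16 (R 4.3.3; minimum count 10, minimum total 15), scaled by TMM, and fitted with edgeR's quasi-likelihood test in 1 model of 43 Kyse30 libraries in 13 conditions, with Benjamini-Hochberg adjustment over 15350 genes. SE is the absolute log2FC divided by the square root of F. The study used DESeq2; here DESeq2 1.42.0 was an alternative, beside RLE factors, other filters, a replicate block, fewer libraries, Fc as control and leaving out each library. Per-library log2 CPM used a prior count of 2. The text names the 12 highest and 12 lowest log2FCs among DEGs at a mean of 5 CPM or more without overlap between groups. It also names up to 6 DEGs per list, and the EGFR family with EPCAM. Positions are from GENCODE 29 and promoters from the RefSeq table (GRCh38.p14), which matched 10842 of 15350 genes. Some genes and 1 gene list are not reported here. The code was tested on simulated counts.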

Additional observations from a re-analysis of the deposited data

Results flagged for a closer look

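In 5 of the 85 named genes, 1 of the 4 EGFhigh libraries at 6 h stood apart by Dixon's test, where chance flags about 1 in 20 groups. On the log2 CPM scale, EGFhigh replicate 4 was highest for KRT6A (7.74, the others 6.7 to 6.88) and SPHK1 (6.29, the others 5.27 to 5.4) and lowest for CTPS1 (6.29, the others 6.57 to 6.62). Replicate 1 was highest for ETS1 (5.91, the others 5.22 to 5.33), and replicate 3 was lowest for DLX6-AS1 (0.12, the others 1.47 to 1.6). KRT6A, SPHK1 and ETS1 kept their calls when any 1 library was left out.

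Among the genes named by rule, 14 are given here whose EGFhigh response differed between 6 h and 72 h in edgeR's test of the interaction, and genes chosen only after their values were seen are not among them. The log2FC at 6 h exceeded that at 72 h for the keratin-associated gene KRTAP2-3 (5.23, padj = 0.0101), the neuregulin NRG1 (3.93, padj = 0.00873), the ribosome assembly factor NOP16 (1.76, padj = 0.0129), P3H2 (1.73, padj = 0.00207), the Notch ligand JAG1 (1.71, padj = 0.036) and EGFR (1.47, padj = 0.00106). It lay below that at 72 h for ZNF467 (-9.57, padj = 0.0308), PIK3IP1 (-4.59, padj = 0.00745), TXNIP (-3.19, padj = 0.029), BCL6 (-2.87, padj = 0.0194), KLHL24 (-2.84, padj = 0.00138), YPEL3 (-2.31, padj = 0.0181), ERBB3 (-1.64, padj = 0.036) and ESRP1 (-1.34, padj = 0.0145). All but EGFR and NRG1 had been named as DEGs of the same 6 h libraries, which favors a larger difference from 72 h. The value of ZNF467 depends on the prior count, since its EGFhigh libraries at 6 h held no count.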

How the results depend on the processing

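No named DEG changed direction under any of 15 alternatives, and RLE factors gave 387 DEGs against 391. The count moved to 581 without the low-count filter, 701 with DESeq2 (388 shared), 600 with Fc as control (277 shared), 1069 with untreated and Fc together, and 113 to 327 when 1 library was left out. The replicate block gave 636 DEGs at 6 h. Same-numbered libraries correlated at 0.164, 0.0343 and 0.193 in their deviations (mean 0.13, against -0.0428 over the 9 other pairs). Control replicates 1 and 4 correlated best with EGFhigh of their own number, and control replicate 3 with EGFhigh replicate 2 (0.059). The labels do not state a pairing, so the block was kept as an alternative. The main fit thus had no term for replicate number. Replicate 1 had the lowest mitochondrial share in control (6.96%) and in EGFhigh (5.99%), against 9.85% to 12.9% in the other libraries compared. What libraries of the same number share beyond the number was not tested. With the block, EGFhigh with EpEX had 1091 DEGs and EGFlow 417. Without the filter, the dose comparison had 7 DEGs, Fc against untreated 1, the time difference 401 and EGFlow 399. DESeq2 gave 310 for the time difference, 1136 for EGFhigh with EpEX and 423 for EGFlow. When each comparison was fitted on its own libraries alone, there were 574 at 6 h, 502 at 72 h, 209 for EGFhigh with EpEX and 359 for EGFlow DEGs. Leaving out 1 library gave 86 to 262 for the time difference, 475 to 778 at 72 h, 222 to 837 for EGFhigh with EpEX and 20 to 268 for EGFlow. EPCAM turned to -0.013 with Fc as control and to -0.071, -0.038 and -0.039 without EGFhigh replicate 1, control replicate 3 and control replicate 4, and EPGN to -0.028 without EGFhigh replicate 1. Without control replicate 1 they were 0.235 and 2.123, the highest of those refits. The causes were not tested. Depth limits genes under 1.08 CPM in the shallowest library.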

Other observations

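Genes in this paragraph were chosen after their values were seen, so they carry no weight as groups. Among the higher DEGs were genes of actin filaments and focal adhesions, led by ZYX (zyxin, log2FC 1.79), MYO1E (1.40), INF2 (1.33), VCL (vinculin, 1.18) and MYO10 (1.05), with EZR (ezrin, 0.82) and the abundant ACTG1 (0.86) below them. Genes of the NF-kB pathway were also present, with TNFSF15 (2.05), BIRC3 (1.999), RELB (1.73) and TRAF3 (1.22) beside TNFAIP3. Nucleolar genes outside the list used above were WDR3 (1.20), RRP15 (1.20), RCL1 (1.21) and UTP20 (1.05). Lower DEGs included the clock gene PER1 (-1.57) beside DBP, while the clock factor BMAL2 was higher (1.503), and 2 adaptors of receptor tyrosine kinases were lower, PIK3R3 (-2.05) and GRB7 (-1.29).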
